A study of Mus musculus with 18 samples.

Results

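The genes described here are 9 regulators of G protein signalling, Rgs1, Rgs2, Rgs3, Rgs10, Rgs12, Rgs14, Rgs16, Rgs18 and Rgs19, in bone marrow macrophages of the mouse. They were chosen by symbol, all 9 were found among the 16909 gene symbols of the table, and all 9 passed the filter on low counts, which left 12465 genes to test. The data were 18 libraries of poly(A) RNA. Con was the mock group (n = 3). The LPS group (n = 5) was the inflammation control, in which macrophages received lipopolysaccharide, a bacterial outer membrane component that acts through Toll-like receptor 4. The STSABs and UVABs groups (n = 5 each) received apoptotic bodies (ABs), fragments shed by dying cells, from cells that the labels call hucMSC, induced with STS or with UV; replicates 4 and 5 of UVABs are spelled UVAB in the labels. The labels give no strain, genotype, age, dose or time, and do not say whether the AB groups also received LPS or what a replicate was (a culture, an animal or a repeat library), so p-values measure only the spread between these libraries.

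Receptors of the seven-helix class act by loading GTP onto the alpha subunit of a heterotrimeric G protein, which then parts from its beta-gamma partner. RGS proteins bind the GTP-loaded alpha subunit and speed the hydrolysis of GTP, so they shorten the signal. In leukocytes they are best known for limiting the response to chemokines, whose receptors couple to alpha subunits of the Gi class. The family falls into subfamilies by sequence: Rgs1, Rgs2, Rgs3, Rgs16 and Rgs18 belong to R4, Rgs10, Rgs12 and Rgs14 to R12, and Rgs19 to RZ.

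Totals of estimated counts lay between 17588400 and 18675300 per library. Levels are given as CPM, the depth-scaled count, with library sizes scaled by TMM (trimmed mean of M-values). Changes are on the log2 scale with their SE, tested with edgeR's quasi-likelihood method, and the words rose and fell are kept for a Benjamini-Hochberg adjusted p, over all 12465 genes, under 0.05. These words compare separate groups of libraries and do not describe a course over time. The TMM factors averaged 1.51 in Con and between 0.902 and 0.932 in the other groups, so comparisons with Con depend on the scaling: the median change of all genes in LPS against Con was -0.03 under TMM, -0.31 under upper-quartile scaling and -0.78 with library totals alone, and 48.2%, 36% and 21.2% of the calls were higher. Replicate 2 of STSABs and replicate 2 of UVABs stood apart from the other AB libraries on the third principal component (-21.5 and -27.2, the other 8 from 2.5 to 11.2). All 12 macrophage markers were tested, with summed levels of 12600 to 17300 CPM per library, most of it Lyz2. In LPS against Con 7 of these 12 rose and 4 fell (Csf1r by 3.10-fold, Mrc1 by 2.30-fold, Adgre1 and Itgam). Against LPS 3 of the 12 rose and 6 fell in each AB group. Markers of other cell types moved with the groups, and their part in the results below was not tested. Summed neutrophil markers (12 of 12 tested) were 1330 to 1620 CPM in Con, 1900 to 2620 in LPS, 3380 to 4900 in STSABs and 3390 to 4310 in UVABs. Most of this sum was Ngp, S100a8 and S100a9. In LPS against Con 6 of the 12 rose and 4 fell (Ltf, Mmp8, Retnlg and Cxcr2). Against LPS 12 rose in STSABs and 10 in UVABs, and 0 fell. Summed mast cell and basophil markers (7 of 10 tested, mostly Hdc outside Con) were 112 to 126 CPM in Con and 527 to 581 in LPS. They were 698 to 1010 CPM in STSABs and 690 to 833 in UVABs, and 6 of the 7 rose in each AB group against LPS. Of the 7, 2 rose in LPS against Con (Hdc and Kit) and 3 fell (Ms4a2, Prss34 and Gata2). Dendritic cell markers (8 of 10 tested) summed to 1310 to 1460 CPM in Con and 4180 to 4800 CPM in the other groups. Most of that sum outside Con was Ccr7, at 142 CPM in Con and 2492 CPM in LPS. In LPS against Con 5 of the 8 rose and 2 fell, Cd209a from 41.8 to 2.86 CPM and Clec9a from 4.25 to 1.89 CPM. T and NK cell markers (5 of 12 tested) summed to 6.37 to 7 CPM in Con and 18.4 to 26 CPM in the other groups. Of the 5, 3 rose and 1 fell in LPS against Con. Lck rose from 0.41 to 12.4 CPM and Klrb1c fell from 1.67 to 0.146 CPM, while mean Cd3d, Cd3e and Cd3g were at most 0.169 CPM in any group.

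All 9 genes differed between LPS and Con: Rgs1, Rgs12, Rgs14 and Rgs16 rose against Con, and Rgs2, Rgs3, Rgs10, Rgs18 and Rgs19 fell. Of all tested genes, 40% rose and 43% fell in this comparison and 83% changed either way, so a called gene was the common case. The largest rises were those of Rgs1 (8.34-fold) and Rgs16 (6.92-fold), and the largest fall was that of Rgs18 (5.17-fold). For each of the 9 genes the LPS libraries lay apart from the Con libraries, as they did for 80% of all tested genes. Against LPS, 3 of the 9 genes rose and 3 fell in STSABs, and 4 rose and 3 fell in UVABs. Of all genes, 57.4% were called in each of these comparisons, 28.4% higher and 29% lower in STSABs and 28.6% and 28.8% in UVABs. Libraries did not overlap for 42.5% of all tested genes in STSABs against LPS and for 42.3% in UVABs against LPS. The median change over the 9 genes was -0.62 in LPS against Con, 0.03 in STSABs against LPS and 0.06 in UVABs against LPS, beside -0.03, -0.01 and 0.00 over all tested genes. In LPS against Con this median was the value of Rgs3, the smallest of the falls. The 9 values there ran from -2.37 (Rgs18) to 3.06 (Rgs1), so it does not describe a common shift. Against Con, 4 of the 9 genes rose and 4 fell in each AB group; 82.6% of all genes were called in both of these comparisons, 40% higher and 42.6% lower in STSABs and 40.2% and 42.4% in UVABs, and the libraries did not overlap for 77.6% and 77.7% of all genes.

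**Figure D1:**
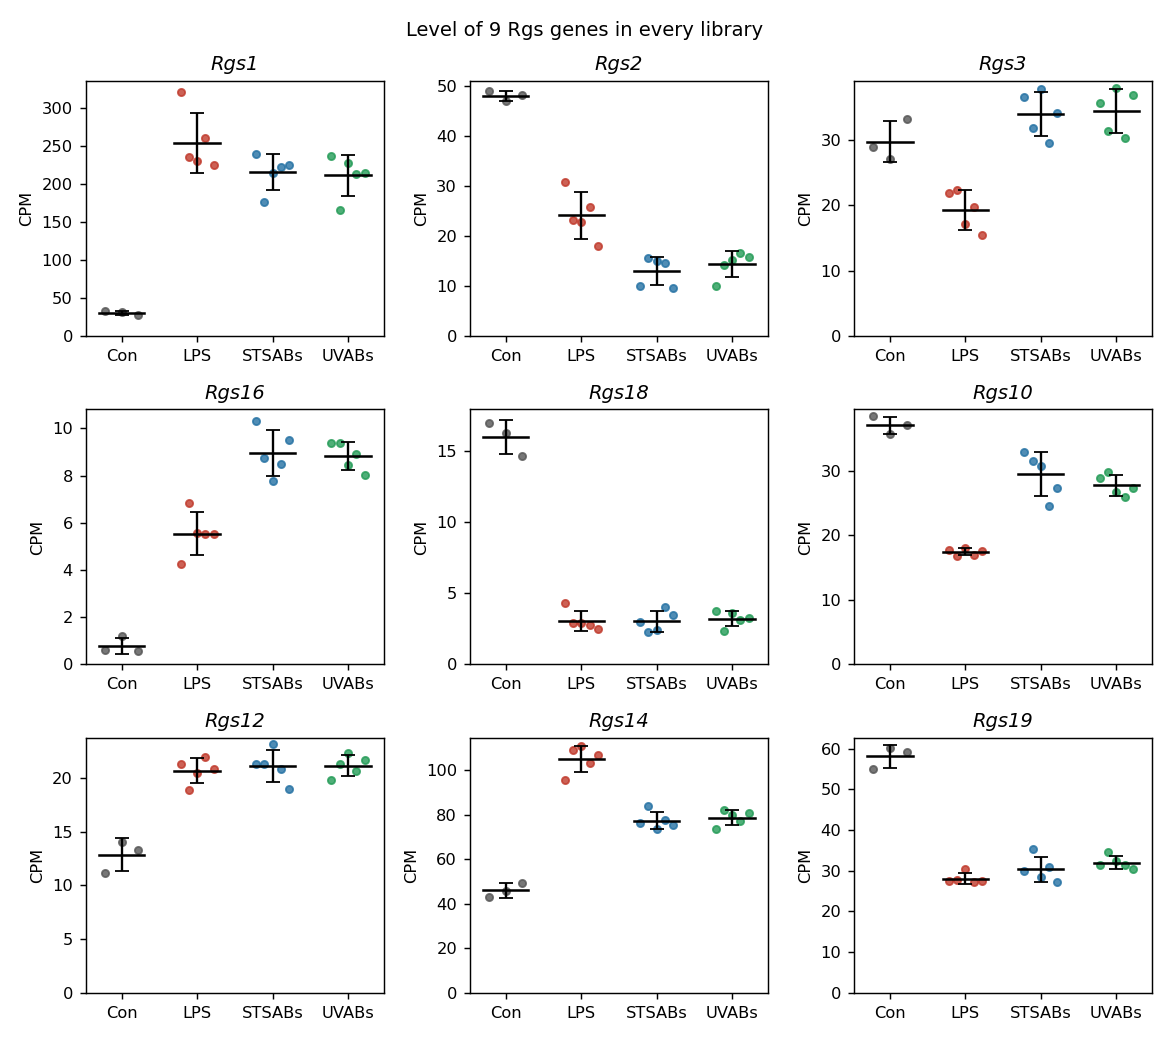
CPM of the 9 genes (y axis, from 0) in every library of the 4 groups (x axis); points are libraries, black lines the group mean and bars the SD (n = 3 in Con, 5 in the other groups). Rgs1 and Rgs16 are low in Con, and Rgs2, Rgs10, Rgs18 and Rgs19 are highest in Con. Rgs3 and Rgs10 are lower in every LPS library than in any library of the other groups.

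Rgs1 is a small R4 protein made mainly of its RGS domain and is known for restraining chemokine receptor signalling in lymphocytes and phagocytes. Its level was 32.3, 31.6 and 27.4 CPM in the Con libraries and 320, 235, 229, 260 and 225 CPM in replicates 1 to 5 of LPS. It was 238, 176, 214, 222 and 225 CPM in STSABs, and 236, 165, 227, 213 and 214 CPM in UVABs. The 15 libraries of the other groups were thus all several times above Con, LPS replicate 1 was the highest, and the replicates numbered 2 were the lowest of both AB groups. The rise from Con to LPS was 3.06 ± 0.13 (edgeR quasi-likelihood, Benjamini-Hochberg adjusted p = 2.11e-15).

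Both AB groups overlapped with LPS in Rgs1, with falls of -0.24 ± 0.10 in STSABs (adjusted p = 0.0463) and -0.27 ± 0.10 in UVABs (adjusted p = 0.0263). Both calls lay close to the threshold, and leaving out LPS replicate 1 or the AB replicate numbered 2 moved the values most. In STSABs the call was lost without LPS replicate 1 (-0.14) or 4 (-0.23), STSABs replicate 2 (-0.17), 3 (-0.24), 4 (-0.25) or 5 (-0.25), Con replicate 1 or 2, or UVABs replicate 3, 4 or 5 (-0.24 for each of these 5), and with DESeq2 (-0.23) and limma-voom (-0.23). In UVABs it was lost without LPS replicate 1 (-0.17) or UVABs replicate 2 (-0.19).

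Rgs2 is an R4 protein that acts preferentially on alpha subunits of the Gq class and is itself induced by many receptors. Con libraries held 49.1, 47.2 and 48.2 CPM, and replicates 1 to 5 of LPS held 30.8, 23.2, 22.9, 25.8 and 18.1 CPM. The levels were 10.1, 15.6, 15, 14.6 and 9.69 CPM in STSABs and 10.1, 14.3, 15.3, 16.7 and 15.9 CPM in UVABs. All Con libraries were above all LPS libraries, and all LPS libraries above all AB libraries. The change was -0.99 ± 0.15 from Con to LPS (adjusted p = 1.75e-06), -0.90 ± 0.14 from LPS to STSABs (adjusted p = 1.79e-05) and -0.74 ± 0.14 from LPS to UVABs (adjusted p = 0.000148). Rgs2 was the single member that fell in LPS against Con and in both AB groups against LPS. This pattern was held by 888 of the 12465 genes (7.12%). Against Con it was 3.71-fold lower in STSABs and 3.33-fold lower in UVABs.

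Rgs16, an R4 protein that acts on Gi and Gq alpha subunits, moved the opposite way in these comparisons. Con held 0.615, 1.19 and 0.578 CPM (16 to 33 counts), and LPS 4.25, 6.85, 5.58, 5.52 and 5.52 CPM. STSABs held 10.3, 8.75, 7.79, 8.48 and 9.52 CPM, and UVABs 9.4, 9.4, 8.43, 8.91 and 8.05 CPM. No AB library was as low as the highest LPS library. Rgs16 rose by 2.79 ± 0.19 from Con to LPS (adjusted p = 9.36e-12), by 0.69 ± 0.12 from LPS to STSABs (adjusted p = 5.02e-05) and by 0.67 ± 0.12 from LPS to UVABs (adjusted p = 7.62e-05). It was 11.2-fold above Con in STSABs and 11-fold above Con in UVABs. A rise in LPS against Con and in both AB groups against LPS was seen in 985 of all tested genes (7.9%). Rgs16 was the single member among them.

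Because Rgs2 and Rgs16 are both R4 genes of chromosome 1 that moved in opposite directions, the 250 bases before their start sites are shown, from RefSeq's table for GRCm38.p6, a build other than the mm39 of the submitters' processing notes. Capitals mark matches on either strand to GGGCGG (the GC box bound by Sp1-type factors) and to TGACG (the short form of the cAMP response element).
Rgs2, minus strand, chr1:144004150-144004399: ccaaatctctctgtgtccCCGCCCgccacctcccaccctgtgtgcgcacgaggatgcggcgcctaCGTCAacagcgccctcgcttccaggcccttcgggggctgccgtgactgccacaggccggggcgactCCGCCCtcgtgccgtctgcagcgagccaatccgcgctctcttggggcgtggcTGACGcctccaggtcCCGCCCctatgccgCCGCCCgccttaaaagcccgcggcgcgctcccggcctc
Rgs16, plus strand, chr1:153740103-153740352: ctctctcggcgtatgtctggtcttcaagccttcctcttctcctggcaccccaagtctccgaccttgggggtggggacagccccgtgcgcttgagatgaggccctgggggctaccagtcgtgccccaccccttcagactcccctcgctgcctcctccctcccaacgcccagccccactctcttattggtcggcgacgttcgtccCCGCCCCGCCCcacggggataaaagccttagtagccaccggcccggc

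The Rgs2 window held 4 matches to GGGCGG and 2 to TGACG, and that of Rgs16 held 2 overlapping matches to GGGCGG and 0 to TGACG. At least 1 match stood in 32.7% (GGGCGG) and 17.8% (TGACG) of the 32841 windows of the table. Both windows were rich in G and C (72.4% and 66.4%). Matches to ACGTG (the core bound by hypoxia-inducible factors), TGANTCA (AP-1), the interferon-stimulated response element and the NF-kB motif numbered 0 in both windows, against 16.6%, 6.75%, 2.98% and 7.25% of all windows with a match. Of the 9 genes, 6 had an entry in the table.

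Rgs3, an R4 protein with long and short isoforms, was lowest in LPS. Con libraries held 28.9, 27 and 33.1 CPM, and the levels were 21.8, 22.3, 17, 19.8 and 15.4 CPM in LPS, 36.6, 31.9, 37.7, 29.4 and 34.1 CPM in STSABs, and 35.6, 31.3, 37.8, 30.2 and 36.8 CPM in UVABs. Every LPS library lay below every library of the other groups, while both AB groups overlapped with Con. Rgs3 fell by 0.62 ± 0.11 on the log2 scale from Con to LPS (adjusted p = 1.92e-05) and rose by 0.82 ± 0.10 in STSABs (adjusted p = 4.09e-07) and 0.83 ± 0.10 in UVABs against LPS (adjusted p = 3.19e-07).

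Against Con, Rgs3 stood at 0.19 ± 0.11 in STSABs (adjusted p = 0.0992) and 0.21 ± 0.11 in UVABs (adjusted p = 0.0744), neither past the threshold. Both values passed without Con replicate 3 (0.28 and 0.30), that in STSABs also without STSABs replicate 4 (0.24), and that in UVABs without UVABs replicate 2 (0.24) or 4 (0.25). With library totals alone both turned to falls past the threshold (-0.50 and -0.49).

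Rgs18, an R4 protein best known from platelets and megakaryocytes, was low in all libraries that were not Con. It had 17, 16.3 and 14.7 CPM in Con, then 4.31, 2.91, 2.94, 2.76 and 2.52 CPM in LPS, 3.01, 2.25, 2.46, 4.03 and 3.47 CPM in STSABs, and 3.76, 2.34, 3.62, 3.14 and 3.29 CPM in UVABs. LPS, STSABs and UVABs overlapped fully. Rgs18 fell by 2.37 ± 0.15 on the log2 scale from Con to LPS (adjusted p = 1.19e-12), and its changes against LPS, -0.02 ± 0.17 in STSABs and 0.06 ± 0.17 in UVABs, did not pass (adjusted p = 0.933 and 0.77).

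Platelet and megakaryocyte markers were measured beside Rgs18. All 10 were in the table and 6 were tested; their summed level was 148 to 162 CPM in Con, 219 to 253 with LPS, 245 to 349 with STSABs and 246 to 465 with UVABs, and most of it was Pf4, at 121 CPM in Con and 206 in LPS. In LPS against Con 2 of the 6 rose (Pf4 and Gp6), 2 fell as Rgs18 did (Treml1 by 2.21 and Itgb3 by 0.74 on the log2 scale), and Ppbp and Itga2b did not pass. Gp9 was at most 0.13 CPM in any group mean, and the part of such cells in the fall of Rgs18 was not tested. In bulk samples, fewer cells that express a gene and less RNA per cell cannot be told apart.

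Rgs10 is a short R12 protein selective for Gi-class alpha subunits and abundant in microglia and macrophages. It fell in LPS against Con and rose in both AB groups against LPS. Con libraries held 38.4, 35.6 and 37 CPM, and LPS libraries 17.7, 16.8, 18.1, 16.9 and 17.6 CPM. STSABs held 32.9, 31.5, 30.7, 24.6 and 27.3 CPM, and UVABs 28.9, 29.8, 26.7, 25.9 and 27.3 CPM. The LPS libraries were the lowest and the Con libraries the highest, with all AB libraries between them. The changes were -1.09 ± 0.08 from Con to LPS (adjusted p = 1.07e-11), 0.76 ± 0.07 from LPS to STSABs (adjusted p = 1.02e-08) and 0.67 ± 0.07 from LPS to UVABs (adjusted p = 6.59e-08). Against Con, Rgs10 was lower by 1.26-fold in STSABs (adjusted p = 0.000328) and 1.34-fold in UVABs (adjusted p = 2.39e-05). A fall in LPS and a rise in both AB groups, as in Rgs10 and Rgs3, was found in 1782 of all tested genes (14.3%).

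Rgs14, an R12 protein that also carries Ras-binding domains and a GoLoco motif for inactive Gi alpha subunits, ran the other way. Con libraries held 43, 45.6 and 49.5 CPM, and the levels were 95.5, 109, 111, 103 and 107 CPM in LPS, 76.2, 83.8, 73.6, 77.4 and 75.4 CPM in STSABs, and 73.5, 81.9, 79.6, 76.9 and 80.6 CPM in UVABs. Here the LPS libraries were the highest, the Con libraries the lowest, and the AB libraries lay between without overlap. Rgs14 rose by 1.19 ± 0.06 in LPS against Con (adjusted p = 5.72e-14) and fell by 0.44 ± 0.05 in STSABs (adjusted p = 3.07e-07) and 0.42 ± 0.05 in UVABs (adjusted p = 6.7e-07) against LPS. Against Con it was 1.68-fold higher in STSABs and 1.71-fold higher in UVABs, values that did not pass with library totals alone (0.05 and 0.06 on the log2 scale). A rise in LPS and a fall in both AB groups was shared by Rgs1, Rgs14 and 1911 genes in all (15.3%).

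Rgs12, the largest of the R12 proteins, with PDZ and phosphotyrosine-binding domains beside its RGS domain, rose in LPS and was at a like level in the AB groups. Con held 11.2, 14.1 and 13.3 CPM and LPS 21.3, 18.8, 20.5, 21.9 and 20.9 CPM; STSABs held 21.3, 21.3, 23.1, 20.8 and 19 CPM and UVABs 19.8, 21.3, 22.3, 20.7 and 21.7 CPM. Con was below all other libraries, and LPS, STSABs and UVABs overlapped. The rise from Con to LPS was 0.68 ± 0.08 (adjusted p = 4.99e-08), but with library totals alone it turned to -0.06, not past the threshold. The changes against LPS, 0.03 ± 0.07 in each AB group, did not pass (adjusted p = 0.736 in STSABs and 0.706 in UVABs).

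Rgs19, also called GAIP, is the RZ protein that binds the scaffold Gipc1 and acts on Gi and Gz alpha subunits. It had 55, 60.2 and 59.2 CPM in Con and 27.5, 27.7, 30.3, 27.2 and 27.6 CPM in LPS. STSABs held 30.1, 35.3, 28.6, 30.9 and 27.3 CPM, and UVABs 31.5, 34.6, 32.4, 31.3 and 30.4 CPM. Con was far above the rest, the lowest UVABs library was just above the highest LPS library (30.4 and 30.3 CPM), and STSABs overlapped with LPS. Rgs19 fell by 1.05 ± 0.07 on the log2 scale from Con to LPS (adjusted p = 2.31e-12). It rose by 0.19 ± 0.06 in UVABs against LPS (adjusted p = 0.0133), while the value in STSABs, 0.11 ± 0.06, did not pass (adjusted p = 0.126) except without STSABs replicate 5 (0.15) or with library totals alone (0.16). UVABs minus STSABs was 0.08 ± 0.06, not past the threshold.

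**Figure D2:**
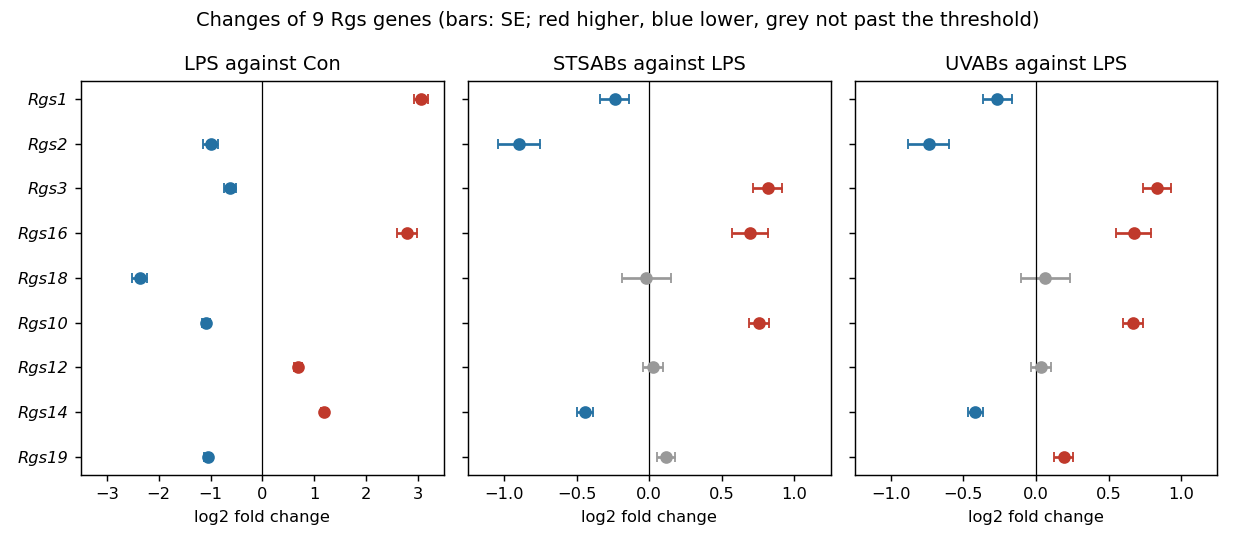
Log2 fold changes (x axis) of the 9 genes (y axis) in LPS against Con (left) and in STSABs and UVABs against LPS (middle and right, on a narrower axis); bars are SE, red is higher, blue lower, grey not past the threshold. In both AB panels Rgs3, Rgs10 and Rgs16 lie to the right of 0 and Rgs1, Rgs2 and Rgs14 to the left; these panels share the LPS libraries as their reference.

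UVABs against STSABs asked whether the way of inducing the ABs mattered, and 0 of the 9 genes and 0 of all 12465 (0%) were called by edgeR's quasi-likelihood test. At an unadjusted p under 0.05 there were 198 genes (1.59%) and 0 of the 9, and DESeq2 and limma-voom also called 0. The values ran from -0.09 ± 0.07 in Rgs10, the member with the smallest unadjusted p (0.214), to 0.16 ± 0.15 in Rgs2. Libraries of the same number deviated together in these groups, though only those numbered 2 and 4 did so beyond all pairs of unlike number. With the replicate number as a block in a fit of only these 10 libraries, 0 genes were called, 457 had an unadjusted p under 0.05, and Rgs2 had the smallest among the 9 (0.0854).

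Some libraries stood at an end of their group for several genes. LPS replicate 1 was the highest of the LPS libraries for Rgs1, Rgs2 and Rgs18 and the lowest for Rgs14 and Rgs16. LPS replicate 5 was the lowest for Rgs1, Rgs2, Rgs3 and Rgs18. In both AB groups replicate 2 was the lowest for Rgs1 and Rgs18 and the highest for Rgs14 and Rgs19. Without both AB libraries numbered 2, the members called remained 3 higher and 3 lower in STSABs and 4 and 3 in UVABs against LPS.

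Levels of different genes were compared per kilobase of the longest protein-coding transcript in GENCODE M21, since longer transcripts give more reads. In Con the order was led by Rgs10 (42 ± 1.56 CPM per kb, SD, n = 3), Rgs19 (38.5 ± 1.85), Rgs14 (19.5 ± 1.39) and Rgs2 (15.9 ± 0.321), with Rgs16 the lowest (0.34 ± 0.147). Rgs1 (7.92 ± 0.699) and Rgs18 (7.87 ± 0.589) lay within each other's spread. Rgs3 followed at 6.32 ± 0.665 and Rgs12 at 2.35 ± 0.275. In LPS, Rgs1 came first (66.1 ± 10.3, SD, n = 5), then Rgs14 (44.5 ± 2.56), and Rgs10 (19.8 ± 0.615) and Rgs19 (18.6 ± 0.845) followed. Rgs1 also led in STSABs (56 ± 6.13) and UVABs (54.9 ± 7.08), ahead of Rgs10 and Rgs14, which did not differ there beyond their spread (33.4 ± 3.87 and 32.8 ± 1.65 in STSABs). Rgs18 was the lowest of the 9 in these 3 groups, at 1.5 to 1.59 CPM per kb. With the median protein-coding transcript length instead, Rgs10 and Rgs16 kept their ranks in Con, as did Rgs1, Rgs14, Rgs10 and Rgs19 in LPS, while Rgs2 and Rgs14 changed places in Con. Rgs1 (14.3 CPM per kb) and Rgs3 (12.1) were then both above Rgs18 (7.87) in Con. With that length Rgs10 was above Rgs14 in both AB groups (52.1 against 32.8 CPM per kb in STSABs and 49.1 against 33.3 in UVABs), so their order there depends on the length used.

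**Figure D3:**
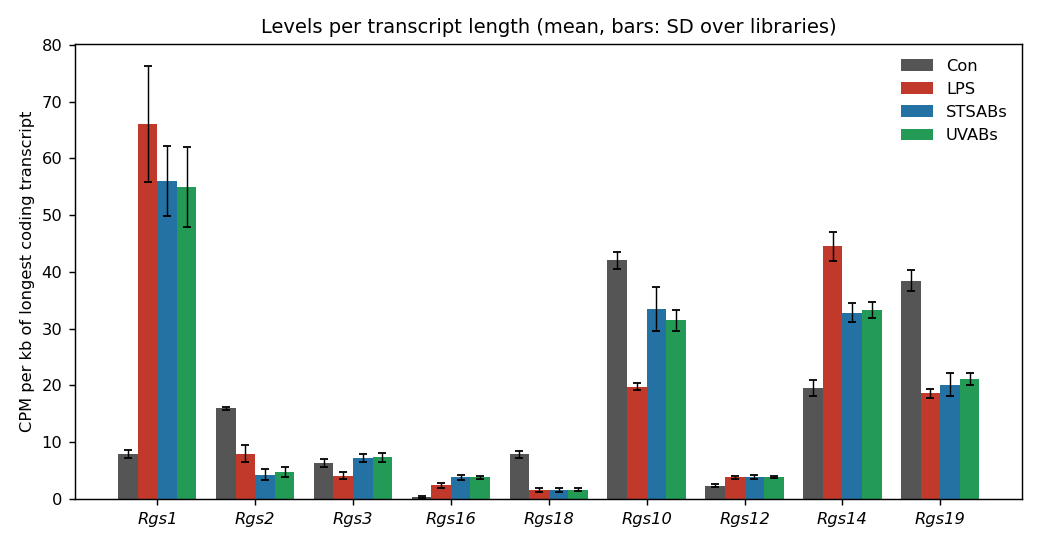
Mean CPM per kilobase of the longest protein-coding transcript (y axis, from 0) for the 9 genes (x axis) in the 4 groups; bars are SD over libraries. Rgs10 and Rgs19 lead in Con, and Rgs1 leads in LPS, STSABs and UVABs.

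In the genome, Rgs2, Rgs13, Rgs1, Rgs21 and Rgs18 follow each other on chromosome 1 with 0 other protein-coding genes between neighbours (RefSeq annotation of GRCm38.p6), and Rgs16 lies farther along the same chromosome, beside Rgs8. The measured genes of the first run did not move together: in LPS Rgs1 rose by 3.06 while Rgs2 fell by 0.99 and Rgs18 by 2.37, and Rgs13 had 1 count in all 18 libraries. Rgs8, the neighbour of Rgs16, had 0 to 4 counts per library. Of the 9 genes, Rgs12 and Rgs16 share exon sequence with an antisense gene model (467 and 236 bases, GENCODE M21). Since the strand setting of the counting is not given in the sources used here, their reads cannot be told apart from such transcripts.

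Of 12 other RGS genes listed, 9 were in the table and 2 passed the filter, both of the R7 subfamily, whose members pair with the beta subunit Gnb5; the other 7 had at most 7 counts in any library. Rgs11 had 5.18, 5.16 and 5.13 CPM in Con and 0.599, 1.15, 0.674, 0.42 and 0.675 CPM in LPS. It held 1.8, 1.82, 2.22, 1.52 and 1.94 CPM in STSABs and 2.73, 3.23, 1.6, 1.11 and 1.64 CPM in UVABs. Like Rgs10, it was highest in Con and lowest in LPS, though UVABs and LPS overlapped. Rgs11 fell by 2.86 ± 0.25 in LPS (adjusted p = 4.82e-10) and rose by 1.39 ± 0.28 in STSABs (adjusted p = 0.000239) and 1.54 ± 0.28 in UVABs (adjusted p = 6.82e-05) against LPS.

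Rgs9 was set by 1 library in each AB group. It had 0.362, 0.217 and 0.361 CPM in Con, 1.62, 1.58, 1.59, 1.68 and 1.35 CPM in LPS, 0.695, 4.32, 1.02, 1.11 and 0.822 CPM in STSABs, and 0.728, 4.49, 0.891, 0.815 and 0.822 CPM in UVABs. Both replicates numbered 2 were above all LPS libraries and the other 8 AB libraries were below them all. Against LPS the changes were 0.01 ± 0.50 and -0.02 ± 0.50, not past the threshold, but without both libraries numbered 2 they were -0.77 in STSABs (adjusted p = 0.00146) and -0.94 in UVABs (adjusted p = 0.000289).

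**Figure D4:**
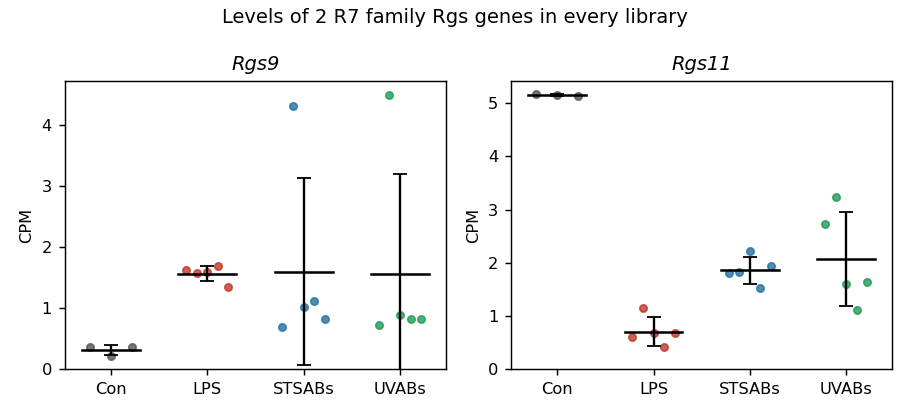
CPM (y axis, from 0) of Rgs9 and Rgs11 in every library of the 4 groups (x axis); points are libraries from replicate 1 at the left of each group, black lines the mean and bars the SD (the axis ends at 0, where the lower bar of Rgs9 in UVABs stops). In Rgs9 the replicates numbered 2 of STSABs and UVABs, at 4.32 and 4.49 CPM, stand above all other libraries.

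The genes whose group means were most like each member were found by the root mean square difference of centred log2 CPM over the 4 group means, a description over 9923 candidate genes. Among the closest to Rgs16 were Ctnnal1 (0.0182) and Csrnp1 (0.0264), and 65 candidates lay within 0.25 of it. Closest to Rgs1 were Tnfrsf8, Etnk1 and Adar, with 199 candidates within 0.25, and closest to Rgs2 were Nol8, Ddx31 and Mettl1, with 248. Rgs18 was most like Cers5, Bbs9 and Igflr1 (274 within 0.25). More candidates lay within 0.25 of Rgs3 (688, closest Mapk3, Ttyh3 and Tut4), Rgs10 (878, closest Nt5e, Haspin and Auh) and Rgs14 (1274, closest Man1a, Pilra and Tmem128). The most lay near Rgs19 (1699, closest Akap7, Gabarapl1 and Cryl1) and Rgs12 (2341, closest Cwc15, Rest and Unc93b1). So Rgs16 had the fewest candidates within that distance, which counts the size of the changes as well as their direction. By the direction of calls alone, 985 of all tested genes (7.9%) shared the pattern of Rgs16, 888 (7.12%) that of Rgs2 and 177 (1.42%) that of Rgs19. The last pattern rests on a change against LPS that passed in UVABs but not in STSABs, while Rgs19 was not called in UVABs against STSABs.

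The substrates of RGS proteins, the alpha subunits, moved both ways: of 10 tested, 3 rose and 5 fell in LPS against Con (2 and 7 with library totals alone), 4 rose and 2 fell in STSABs against LPS, and 3 rose and 4 fell in UVABs against LPS. Gnai2, the most abundant Gi alpha subunit of leukocytes, was 682 ± 38.7 CPM in Con and 620 ± 17.8 in LPS (-0.14 ± 0.06, not past the threshold) and rose to 870 ± 69.3 in STSABs (0.49 ± 0.06) and 865 ± 58.1 in UVABs (0.48 ± 0.06). Gnai3, a second Gi subunit, rose by 1.11 ± 0.07 in LPS and fell by 0.45 ± 0.06 in STSABs and 0.42 ± 0.06 in UVABs. Gna13 rose by 1.38 ± 0.09 in LPS, and Gna12 of the same class fell by 0.98 ± 0.08 and fell again in STSABs (-0.41 ± 0.08) and UVABs (-0.50 ± 0.08). Gna15, a Gq-class subunit of blood cells, fell by 0.94 ± 0.08 in LPS. Gnas, the stimulatory subunit that activates adenylyl cyclase, rose slightly in both AB groups (0.17 ± 0.04 and 0.16 ± 0.04). Errors of levels here and below are SD, and those of changes SE. Beside the counts here and below, 40% of all tested genes rose and 43% fell in LPS against Con. Against LPS, 28.4% rose and 29% fell in STSABs, and 28.6% rose and 28.8% fell in UVABs.

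Of 13 tested beta and gamma subunits, 7 rose and 5 fell in LPS, 4 and 4 in STSABs against LPS, and 3 and 4 in UVABs against LPS; with library totals alone the balance in LPS turned to 4 and 7. Gnb4 rose by 2.31 ± 0.07, Gng12 by 2.07 ± 0.11 and Gnb1 by 0.91 ± 0.04 in LPS, whereas Gng2 fell by 1.98 ± 0.07. Against LPS, Gngt2 rose by 0.70 ± 0.08 in STSABs and 0.75 ± 0.08 in UVABs. Gng12 fell by 0.67 ± 0.09 and 0.66 ± 0.09. Gng4 had 2 counts in the Con libraries together and 3.65 ± 0.564 CPM in LPS, and it rose in both AB groups, with 6.32 ± 2.62 CPM in the STSABs libraries and 6.46 ± 1.45 CPM in the UVABs libraries.

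Receptor kinases and arrestins, which end signalling at the receptor rather than at the G protein, moved both ways: of 10 tested, 4 rose and 6 fell in LPS against Con (2 and 8 with library totals alone), and in each AB group against LPS 6 rose and 2 fell. Grk5, a receptor kinase, fell from 48.1 ± 2.27 CPM in Con to 13.5 ± 0.583 in LPS. Against LPS it rose, with 27.2 ± 2.09 CPM in STSABs and 27.7 ± 0.65 in UVABs. Grk6 fell by 1.92 ± 0.06 and rose by 0.36 ± 0.06 and 0.33 ± 0.06. Arrb1, a beta-arrestin, fell from 244 ± 9.45 to 33.8 ± 2.7 CPM and rose to 63 ± 10.2 and 62 ± 10.3, and Arrb2 rose from LPS by 0.84 ± 0.06 and 0.85 ± 0.06. Arrdc3, of the related alpha-arrestins, fell by 2.37 ± 0.13 in LPS and rose by 1.04 ± 0.13 and 0.97 ± 0.13, and Arrdc4 fell in the AB groups (-0.45 ± 0.05 and -0.41 ± 0.05).

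Other modulators of G alpha subunits and proteins with RGS-like domains numbered 14 tested, of which 4 rose and 7 fell in LPS (1 and 12 with library totals alone) and 5 rose and 5 fell in each AB group against LPS. Gpsm3, a GoLoco protein of leukocytes, fell from 72.6 ± 7.61 CPM in Con to 36.3 ± 1.39 in LPS. Against LPS it rose, with 63.4 ± 6.14 CPM in STSABs and 63.2 ± 8.96 in UVABs. Gpsm2, another GoLoco protein, rose by 1.89 ± 0.06 in LPS. Snx14, a sorting nexin with an RGS-like domain, fell by 1.81 ± 0.07 in LPS and rose by 0.49 ± 0.07 and 0.44 ± 0.07 in the AB groups, and Akap10, an anchoring protein with such domains, fell by 0.53 ± 0.08. Axin1, a scaffold of Wnt signalling, fell in the AB groups (-0.34 ± 0.05 and -0.27 ± 0.05), and Nucb1 rose there (0.28 ± 0.05 and 0.25 ± 0.05).

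Among 19 tested effectors of G proteins, 9 rose and 9 fell in LPS, and 8 rose and 3 fell in STSABs and 8 and 2 in UVABs against LPS; with library totals alone the LPS split was 2 and 11. Plcb2, a phospholipase C of blood cells, fell by 2.80 ± 0.06 in LPS, and Plcb3, at 64.3 ± 3.45 CPM with LPS, rose to 131 ± 5.44 with STSABs and 126 ± 3.66 with UVABs. Pik3cg, the phosphoinositide kinase driven by beta-gamma subunits, fell from 221 ± 10.8 CPM in Con to 73.9 ± 9.13 in LPS and rose with ABs, to 131 ± 18.3 (STSABs) and 125 ± 11.9 (UVABs). Its regulatory subunit Pik3r5 rose by 2.64 ± 0.07 in LPS. The adenylyl cyclase Adcy7 fell by 1.91 ± 0.07 and rose by 0.55 ± 0.07 and 0.46 ± 0.07 in the AB groups, Adcy6 rose by 1.31 ± 0.06 in LPS, and the guanine nucleotide exchange factor Arhgef11 rose by 0.44 ± 0.05 and 0.39 ± 0.05 in the AB groups.

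Of 25 tested genes of cAMP signalling, 12 rose and 12 fell in LPS, and 13 rose and 3 fell in STSABs and 14 and 2 in UVABs against LPS. The nuclear receptors Nr4a1 (8.69 ± 1.11 CPM in LPS, 20.1 ± 4.36 in STSABs, 20.1 ± 2.93 in UVABs) and Nr4a2 (1.46 ± 0.16 and 1.47 ± 0.16 against LPS) rose in both AB groups. Nr4a3 rose by 3.57 ± 0.07 in LPS and by 0.27 ± 0.05 and 0.24 ± 0.05 in the AB groups. The phosphodiesterases Pde4b (2.13 ± 0.10) and Pde7b (3.04 ± 0.13) rose in LPS, Pde7a rose in the AB groups (0.50 ± 0.06 and 0.51 ± 0.06), and the kinase subunit Prkar2a fell by 2.56 ± 0.08 in LPS. With library totals alone the LPS split was 7 and 17.

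The receptors upstream were listed as 56 genes, of which 52 were tested. In LPS 21 rose and 26 fell (15 and 34 with library totals alone), in STSABs against LPS 14 rose and 15 fell, and in UVABs against LPS 17 rose and 12 fell. Adora2a, an adenosine receptor, rose by 5.10 ± 0.09 in LPS, the chemokine receptor Ccr7 by 4.13 ± 0.09, and the formyl peptide receptors Fpr1 and Fpr2 by 3.34 ± 0.08 and 2.61 ± 0.06. Gpr84, a receptor for medium-chain fatty acids, fell by 1.14 ± 0.06 in STSABs and 1.12 ± 0.06 in UVABs against LPS, and the ADP receptor P2ry1 fell too, from 22.6 CPM in LPS to 10.8 and 9.84 CPM. Ffar2, a receptor for short-chain fatty acids, rose by 1.90 ± 0.14 and 1.60 ± 0.14, and the complement receptor C3ar1 by 0.47 ± 0.05 and 0.46 ± 0.05.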

How the data were processed

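Estimated counts per gene symbol, not normalized, were deposited by the authors in 1 table of 18 libraries. Per the submitters' processing notes, reads were aligned with HISAT2 and the build was mm39. Which tool counted them, on which annotation and with what strand setting, is not given in the sources used here. Of the values 6.35% were not whole numbers, 0 of them in the 9 genes, and all were rounded. Genes were filtered with filterByExpr, scaled by TMM and tested with edgeR 4.0.16 (R 4.3.3) by quasi-likelihood over all 18 libraries with group means only, for 6 comparisons, each Benjamini-Hochberg adjusted over all 12465 tested genes. SE is the absolute log2 fold change over the square root of F. The test was tested on simulated counts. CPM used TMM-scaled library sizes, and 17588400 to 18675300 counts per library set the precision.

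The members, gene lists and tests were chosen with earlier results of these data known. The rule names all 9 members, tested RGS genes, in each other list up to 4 genes with the smallest adjusted p in LPS against Con and up to 4 in STSABs against LPS among those also called in UVABs against LPS, at 5 CPM or more, and the 3 genes most like each member. Some results under this rule and in the marker lists are not reported here. Same-numbered libraries of STSABs and UVABs deviated together (correlation over genes 0.116 to 0.54 in 5 pairs, beside -0.346 to 0.154 between unlike numbers). Only the pairs numbered 2 (0.54) and 4 (0.288) lay above all pairs of unlike number, so a pairing by number was clear only for these. It comes from the data, not from the labels, and in the other comparisons the numbers did not pair libraries. Alternatives were DESeq2 1.42.0 size factors and test, upper-quartile scaling, library totals, limma-voom (limma 3.58.1), no filter, a filter of 10 CPM in 3 libraries, fits of only the groups compared, replicate terms, replicates 1 to 3 only, no AB libraries numbered 2, and each library left out; a block fit of the AB groups alone was chosen after seeing the data.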

Additional observations from a re-analysis of the deposited data

Results flagged for a closer look

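In 33 sets of 5 libraries (11 RGS genes in LPS, STSABs and UVABs), 4 libraries stood far from the others of their group; chance flags about 5% of such sets. Rgs9 was 4.32 CPM in STSABs replicate 2 beside 0.695 to 1.11 CPM in the other STSABs libraries, and 4.49 CPM in UVABs replicate 2 beside 0.728 to 0.891 CPM. Rgs18 was 4.31 CPM in LPS replicate 1 beside 2.52 to 2.94 CPM, and Rgs19 was 30.3 CPM in LPS replicate 3 beside 27.2 to 27.7 CPM.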

How the results depend on the processing

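Of 54 member changes (9 genes, 6 comparisons), 11 changed their call or direction under any of 31 other settings. With library totals alone, genes higher and lower numbered 2365 and 8802 in LPS against Con, 2510 and 8511 in STSABs against Con, and 2504 and 8523 in UVABs against Con; Rgs12 was -0.0607 in LPS, 0.0154 in STSABs and 0.0120 in UVABs against Con, Rgs14 0.0489 and 0.0649 and Rgs3 -0.50 and -0.49 in the AB groups against Con, Rgs1 -0.19 and -0.23 in STSABs and UVABs against LPS, and Rgs19 0.16 in STSABs against LPS. In STSABs against LPS, Rgs1 also lost its call with DESeq2 size factors (-0.23), upper-quartile scaling (-0.23), the DESeq2 test (-0.23), limma-voom (-0.23), the stricter filter (-0.22), which left out Rgs16, a fit of only both groups (-0.22) and replicates 1 to 3 only (-0.31). With replicates 1 to 3 only, Rgs1 (-0.32) and Rgs19 (0.21) lost their calls in UVABs against LPS, with fewer samples. Rgs3 passed against Con with replicates 1 to 3 only (0.26 in STSABs), with a term for replicates 1 to 3 against 4 and 5 (0.25 and 0.27), without both AB libraries numbered 2 (0.21 and 0.24), and with UVABs and Con fitted alone (0.21). With the replicate number as a block, Rgs3 passed against Con (0.25 in STSABs and 0.26 in UVABs) and no other member call changed. Without both AB libraries numbered 2, Rgs9 turned to -0.77 in STSABs against LPS. Leaving out each library in turn, Rgs1 ranged from -0.28 to -0.14 in STSABs and -0.31 to -0.17 in UVABs against LPS, Rgs19 from 0.0574 to 0.15 in STSABs against LPS, and Rgs3 from 0.13 to 0.28 in STSABs and 0.15 to 0.30 in UVABs against Con. Where not stated, the cause was not tested. Counts were low for Rgs16 in Con (16 to 33 per library), Rgs9 in Con (6 to 10) and Rgs11 in LPS (7 to 19), which limits the precision of their changes.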
